A study of Mus musculus with 6 samples.

Results

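Immune checkpoint and costimulatory ligands were examined in mouse vascular smooth muscle cells (VSMCs) through 9 genes chosen by name: Cd274, Pdcd1lg2, Cd80, Cd86, Cd276, Icosl, Cd47, Lgals9 and Pvr. These were 9 of the 54532 genes of the table, and all 9 had a row. The 6 RNA-seq libraries came from cells that received an adenovirus with a control plasmid (Ad-Con, labelled WT, n = 3) or with a plasmid for overexpression of pyruvate dehydrogenase kinase 4 (Ad-PDK4, n = 3). The study's methods and results describe primary aortic smooth muscle cells of wild-type mice, exposed to angiotensin II after the virus in both groups. The question was how PDK4 overexpression acts on VSMC function. The study calls the libraries biological replicates, but no label tied a library to its own animal or culture, so p-values measure the spread between these libraries.

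Libraries held 17588942 to 21861872 reads assigned to genes. Pdk4, the targeted kinase, was at 9.50, 10.4 and 10.2 FPKM (fragments scaled to gene length and library size) under the Ad-Con label and at 7.67, 7.41 and 7.38 under the Ad-PDK4 label. Every Ad-PDK4 library was thus below every Ad-Con library for the targeted gene (log2 fold change -0.42, limma adjusted p = 0.001139). Whether reads of the transgene were counted was not tested. The direction of each difference below rests on the labels as given. Among markers of the labelled cell type, Acta2 stood at 78.0 ± 0.950 FPKM under Ad-Con and 36.2 ± 2.40 under Ad-PDK4 (SD, n = 3), while Myh11 had 2 to 10 reads per library and Tagln 4 to 20. The fibroblast list summed to 1617 to 1758 FPKM under Ad-Con and 844.3 to 929.2 under Ad-PDK4. Its largest member was Col1a1 (1055 and 434.8 FPKM), while Dcn moved the other way (90.1 and 160.6 FPKM). Myh11 and Tagln, which mark contractile smooth muscle, thus had few reads in cells labelled as VSMCs. For Tagln, 48.3% of the 50-base windows of its longest transcript recurred in other genes, so its count is uncertain. Myl9 (15.4 and 15.0 FPKM under Ad-Con and Ad-PDK4) and Smtn (8.32 and 8.44) of the same list were expressed. Cnn1, Lmod1, Myocd, Des and Mylk were lower than Smtn in both groups.

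Most ligands of this kind sit on a cell's surface and tune the immune cells that touch it. CD80 and CD86 give T cells the second signal through CD28 or restrain them through CTLA-4, whereas PD-L1 (Cd274) and PD-L2 (Pdcd1lg2) restrain T cells through PD-1, and CD47 tells macrophages not to engulf the cell through SIRPα. CD80 and CD86 belong mainly to professional antigen-presenting cells, while PD-L1 is induced in many tissue cells by interferons acting through JAK kinases and the transcription factor IRF1.

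Cd274 and Lgals9 were the ligand genes past both the adjusted p and the 2-fold limit, and stretches of their promoters are shown because both held the core letters of the element bound by interferon regulatory factors. Bases -120 to -31 before the RefSeq start are given 5′ to 3′ on the strand of each gene, from GRCm38.p6, with the core in capitals. They lie at chr19:29367318-29367407 (+) for Cd274, chr11:78984955-78985044 (-) for Lgals9 and chr19:29410799-29410888 (+) for Pdcd1lg2, the neighbour of Cd274 that had almost no reads.
Cd274: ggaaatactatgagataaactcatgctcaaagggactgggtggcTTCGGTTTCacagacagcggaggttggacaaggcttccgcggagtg
Lgals9: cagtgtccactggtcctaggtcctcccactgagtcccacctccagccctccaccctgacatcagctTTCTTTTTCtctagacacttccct
Pdcd1lg2: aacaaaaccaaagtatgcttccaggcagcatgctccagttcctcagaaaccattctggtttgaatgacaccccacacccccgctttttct
The core GAAANNGAA, searched on both strands over 250 bases before to 50 after the start, was read on the opposite strand in Cd274, from position -76, and in Lgals9, from position -54 and again from position 17 after the start. Plgrkt, a gene on the opposite strand, reaches to chr19:29367390, so the core of Cd274 also lies inside the interval of Plgrkt. RefSeq promoters were found for 7 of the 9 genes, and the core was in 2 of these 7. It was in 8.56% of all 32851 promoters of the same length. A STAT element (TTCNNNGAA, 8.30% of promoters) and an NF-κB form (GGGNNTTTC, 4.36%) were in 0 of the 7.

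Across the 9 genes, PD-L1 and galectin-9 transcripts rose by more than 2-fold in the libraries labelled Ad-PDK4, those of Cd47 and Pvr rose by less, and Cd276 fell. Cd80 did not pass the test, Icosl was near the detection limit, and Pdcd1lg2 and Cd86 had almost no reads or none. A mean of at least 0.5 FPKM over the 6 libraries admitted 13423 genes to the test, including 6 of the 9. Of these 6, 2 were called higher (limma, Benjamini-Hochberg adjusted p below 0.05 and at least 2-fold), against 3.95% of all tested genes, and 0 were called lower, against 2.68%. By adjusted p alone 4 were higher, against 21.8% of tested genes, and 1 was lower, against 20.8%. The groups did not overlap for 5 of the 6, against 54.3% of tested genes, so absence of overlap was common in this comparison. The median log2 fold change of the 6 was 0.66, and that of all tested genes was -0.003.

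**Figure D1:**
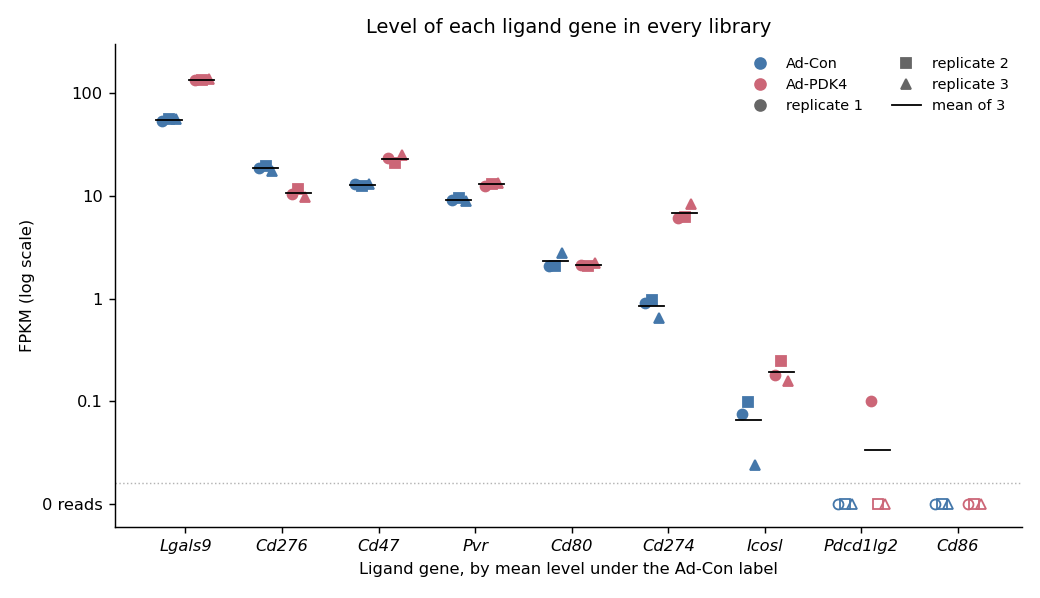
Level of each ligand gene in every library, in FPKM on a log scale, with Ad-Con in blue, Ad-PDK4 in red, a symbol per replicate and a line for the mean of 3; open symbols mark 0 reads. Lgals9 was the highest in both groups, and Cd274 moved from 0.640 to 0.959 FPKM up to 6.07 to 8.30 FPKM.

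Cd274 encodes PD-L1, the ligand that restrains activated T cells through the receptor PD-1 (Pdcd1). It lies at chr19:29367455-29388095 (+). The Ad-Con libraries held 67, 61 and 42 of its reads, or 0.909, 0.959 and 0.640 FPKM, and the Ad-PDK4 libraries 400, 392 and 664 reads, or 6.07, 6.18 and 8.30 FPKM. The lowest Ad-PDK4 library was well above the highest Ad-Con library, and Ad-PDK4 replicate 3 was the highest of all. Mean FPKM went from 0.836 ± 0.172 to 6.85 ± 1.26 (SD, n = 3 each), an 8.20-fold difference. The log2 fold change was 2.90 (SE 0.18, 95% confidence interval 2.49 to 3.31, limma adjusted p = 1.2e-05), at the 99.02nd percentile of the 13423 tested genes. In level, Cd274 moved from the 8.41st percentile of tested genes under Ad-Con to the 50.9th under Ad-PDK4. An opposite-strand gene (AC119228.1) covered 14.1% of its exon bases and the counting strand was not given, and 12.4% of 50-base windows of its longest transcript recurred in transcripts of other genes.

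Pdcd1lg2, which encodes PD-L2, the other ligand of PD-1, starts 22824 bases beyond the end of Cd274 at chr19:29410919-29471157 (+). It had 0 reads in all 3 Ad-Con libraries and 3, 0 and 0 reads in the Ad-PDK4 libraries. For this gene, 3 reads correspond to 0.0826 to 0.104 FPKM, the limit that a count of 0 allows, for counting error only. No difference was detectable at this depth.

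CD80 and CD86, the B7 proteins that engage CD28 and CTLA-4, had unlike levels. Cd80, at chr16:38455561-38496335 (+), was at 2.06, 2.08 and 2.76 FPKM under Ad-Con and 2.12, 2.07 and 2.21 under Ad-PDK4. The groups overlapped, with Ad-Con replicate 3 the highest library. The log2 fold change of -0.09 did not pass the test (SE 0.13, limma adjusted p = 0.6262), and its 95% confidence interval ran from -0.40 to 0.22, so neither a small fall nor a small rise can be set aside. Cd86, at chr16:36603869-36666081 (-), had 0 reads in all 6 libraries, which allows up to 0.0371 to 0.0468 FPKM. Relative to Cd80, the level of Cd274 per length moved from 0.379 ± 0.127 to 3.20 ± 0.481 (SD, n = 3 each), so Cd274 was below Cd80 in every Ad-Con library and above it in every Ad-PDK4 library.

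Icosl encodes the ligand of ICOS, a costimulatory receptor of activated T cells, and lies at chr10:78069302-78083913 (+). It had 7, 8 and 2 reads under Ad-Con and 15, 20 and 16 under Ad-PDK4, or 0.0656 ± 0.0381 and 0.194 ± 0.0473 FPKM (SD, n = 3 each). The counts did not overlap, but the gene was below the filter, and with all genes admitted its log2 fold change of 0.84 did not pass (limma adjusted p = 0.1282). On reads recovered from FPKM, a weighted limma fit (voom) gave 1.62 with an adjusted p of 0.0329, so its call differed between the fits.

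Cd276 encodes B7-H3, a B7 family member found on many tissue and tumour cells whose receptor is debated. It lies at chr9:58524298-58555437 (-) and was the ligand gene that fell. Its FPKM was 18.7, 19.4 and 17.5 under Ad-Con and 10.4, 11.7 and 9.83 under Ad-PDK4. The groups were clear of each other, with means of 18.5 ± 0.969 and 10.6 ± 0.947 (SD, n = 3 each). The log2 fold change of -0.80 (SE 0.08, 95% confidence interval -0.98 to -0.62) passed the test (limma adjusted p = 1.3e-04) but not the 2-fold limit, at the 5.52nd percentile of tested genes. An opposite-strand gene, Gm10657, covered 11.4% of its exon bases and had 0 to 5 reads per library.

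CD47 and galectin-9 act on myeloid and T cells. Cd47, at chr16:49800533-49915010 (+), was at 12.9, 12.4 and 13.1 FPKM under Ad-Con and 23.2, 20.6 and 24.8 under Ad-PDK4. The groups did not overlap, and the spread was wider under Ad-PDK4 (22.9 ± 2.11 against 12.8 ± 0.408, SD, n = 3 each). The log2 fold change was 0.83 (SE 0.07, 95% confidence interval 0.66 to 1.0, limma adjusted p = 9.1e-05), below the 2-fold limit as a point estimate.

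Lgals9, at chr11:78962974-78984946 (-), encodes galectin-9, a sugar-binding protein and a ligand of TIM-3 (Havcr2). It was the most abundant of the 9 in every library, at 53.9, 55.4 and 56.4 FPKM under Ad-Con and 134.2, 132.5 and 136.3 under Ad-PDK4. The Ad-PDK4 libraries differed among themselves by little beside the gap to Ad-Con (134.3 ± 1.88 against 55.2 ± 1.21, SD, n = 3 each). The log2 fold change was 1.28 (SE 0.04, 95% confidence interval 1.18 to 1.38, limma adjusted p = 5.1e-07), the narrowest interval of the 6, with 2078 to 6433 reads per library behind it.

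Pvr encodes CD155, which activates NK and T cells through CD226 and restrains them through TIGIT and CD96. At chr7:19903578-19921160 (-), it was at 9.03, 9.42 and 8.97 FPKM under Ad-Con and 12.5, 13.0 and 13.3 under Ad-PDK4. The groups did not overlap, and the rise was the smallest of those that passed (log2 fold change 0.49, SE 0.06, 95% confidence interval 0.36 to 0.62, limma adjusted p = 3.0e-04).

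**Figure D2:**
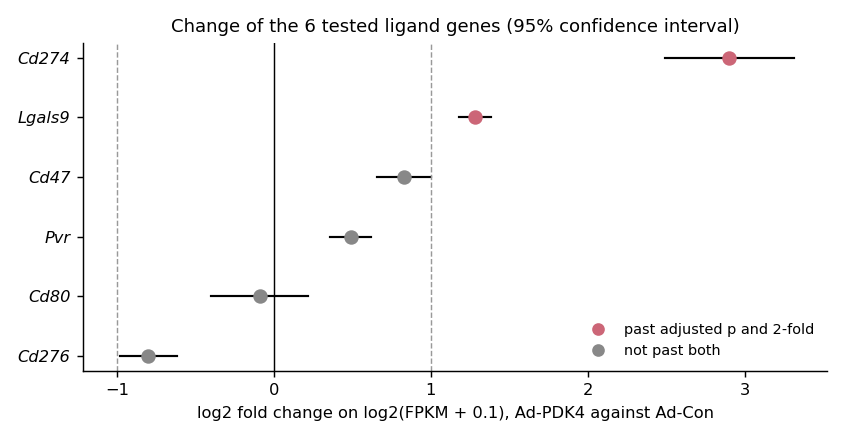
Log2 fold change of the 6 tested ligand genes, Ad-PDK4 against Ad-Con on log2(FPKM + 0.1), with 95% confidence intervals as lines; red points passed the adjusted p and the 2-fold limit, which is dashed. The interval of Cd274 (2.49 to 3.31) lies above that of Lgals9 (1.18 to 1.38), and that of Cd80 spans 0.

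The make-up of the ligand transcripts differed between the groups. Summed over the 9 genes, the level was 98.9 ± 1.14 FPKM under Ad-Con and 190.0 ± 4.41 under Ad-PDK4 (SD, n = 3 each). Lgals9 took 55.8% ± 0.760 of this sum under Ad-Con and 70.7% ± 0.688 under Ad-PDK4, Cd274 0.846% ± 0.176 and 3.6% ± 0.575, and Cd276 18.7% ± 0.993 and 5.60% ± 0.617. The share of Cd47 moved little, from 13.0% ± 0.489 to 12.0% ± 0.863, and ranges of its share overlapped. In order of level, Ad-Con libraries ran Lgals9, Cd276, Cd47, Pvr, Cd80, Cd274 and Icosl, and Ad-PDK4 libraries ran Lgals9, Cd47, Pvr, Cd276, Cd274, Cd80 and Icosl. No neighbours in either order overlapped in range over the 3 libraries, except Pdcd1lg2 and Cd86 at the bottom. Cd276 thus moved from rank 2 to rank 4, and the ratio of Cd47 to Cd276 from 0.693 ± 0.0575 to 2.18 ± 0.383. In these bulk samples, fewer cells that express a gene and less RNA of it per cell cannot be told apart.

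**Figure D3:**
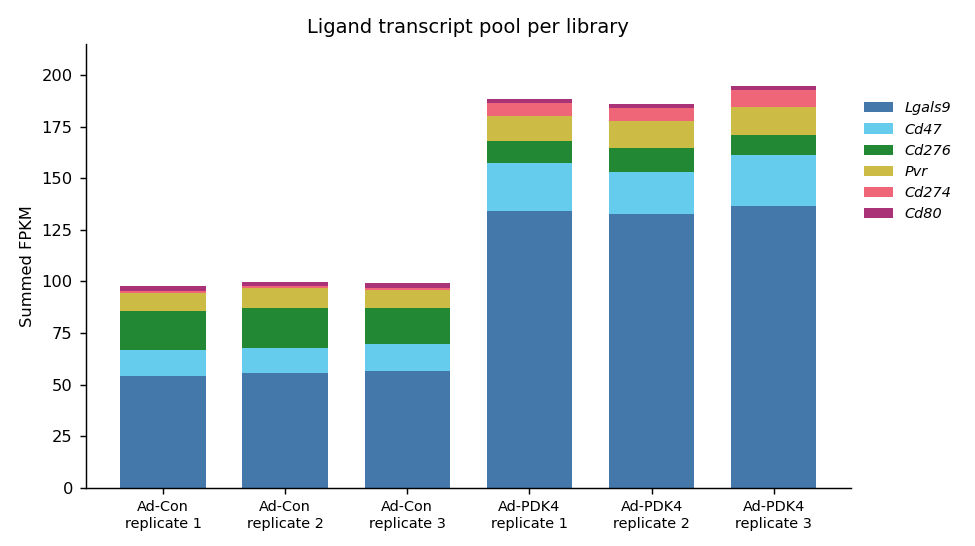
Summed FPKM of the ligand genes in each library, stacked by gene; Icosl, Pdcd1lg2 and Cd86 are left out as too low to draw. The sum of the 9 was 97.6 to 99.7 FPKM in Ad-Con libraries and 186.3 to 194.9 in Ad-PDK4 libraries, and Lgals9 was the largest block in all 6.

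Receptors of these ligands were low or not detected apart from Sirpa. Of 10 receptor genes, 4 had 0 reads in every library, including Pdcd1 and Ctla4, and 2 were tested. Havcr2, the TIM-3 receptor of galectin-9, had 22 to 31 reads under Ad-Con and 14 to 33 under Ad-PDK4 and was just under the filter, with overlapping groups. Sirpa, the CD47 receptor of myeloid cells, was at 9.46, 10.3 and 9.53 FPKM under Ad-Con and 11.4, 10.9 and 11.1 under Ad-PDK4. That small gap passed the adjusted p (log2 fold change 0.18, limma adjusted p = 0.03898), but not when all genes with a read were admitted (adjusted p = 0.07172). Tigit, a receptor of PVR, had 0 to 14 reads under Ad-Con and 7 to 26 under Ad-PDK4 and did not pass (log2 fold change 0.92, SE 0.89, limma adjusted p = 0.4454). The ratio of Cd47 to Sirpa, both per length, was 1.31 ± 0.103 under Ad-Con and 2.06 ± 0.171 under Ad-PDK4 (SD, n = 3 each).

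Markers of antigen-presenting and lymphoid cells were set beside these values, since those cells carry many of the ligands. Of 20 macrophage and dendritic cell markers, 8 had 0 reads in all 6 libraries, including Ptprc, Itgam and Tyrobp, and 12 had at most 3 reads in any library. For Itgam, 72.4% of the 50-base windows recurred in another gene, so its count of 0 is uncertain. The list summed to 28.9 to 31.9 FPKM under Ad-Con and 25.5 to 28.5 under Ad-PDK4, and its largest members, Cd68 and Cd14, moved in opposite directions (log2 fold changes -1.74 and 0.55, limma adjusted p = 4.4e-04 and 2.7e-04). Csf1r and Xcr1, below the filter, were higher under Ad-PDK4 (means of 0.258 and 0.640 FPKM, and of 0.00794 and 0.0876). Zbtb46 was lower (-0.67, limma adjusted p = 0.033). Of 10 lymphocyte markers, 7 had 0 reads, and the list summed to 0.197 to 0.467 and 0.483 to 0.749 FPKM. Lck of this list had 9, 9 and 10 reads under Ad-Con and 21, 26 and 45 under Ad-PDK4, below the filter. The 8 endothelial markers summed to 1.24 to 1.54 and 1.28 to 1.56 FPKM. Smooth muscle markers summed to 103.3 to 105.5 FPKM under Ad-Con and 58.2 to 63.9 under Ad-PDK4. Of these, 1 of 4 tested was called lower, Acta2 (log2 fold change -1.11, limma adjusted p = 5.3e-06). Smtn, Myl9 and Lmod1 did not pass (0.02, -0.04 and -0.29, limma adjusted p = 0.839, 0.6368 and 0.3568). Mylk, below the filter, went from 0.756 to 0.123 FPKM. In the fibroblast list 3 of 7 tested were called lower, and both counts stand against 2.68% of all tested genes. Dcn of the fibroblast list rose by 0.83 on the log2 scale (limma adjusted p = 4.0e-04), and Pdgfra did not pass (-0.05, limma adjusted p = 0.5442). Summed levels of the smooth muscle and fibroblast lists were lower under Ad-PDK4. By adjusted p, 4 of the 6 tested ligand genes were higher there and 1 was lower. The part of these lists in the ligand values was not tested.

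Of 25 genes for further B7, butyrophilin, nectin and checkpoint ligands, 13 were tested, 3 were called higher and 1 lower, and the median log2 fold change was 0.02. By adjusted p alone 4 were higher and 4 lower. All tested genes gave 3.95% and 2.68% by both limits and 21.8% and 20.8% by adjusted p alone. Nectin2, which shares the receptors TIGIT and CD226 with PVR, was at 11.4, 10.9 and 10.5 FPKM under Ad-Con and 26.5, 31.6 and 28.8 under Ad-PDK4. Each Ad-PDK4 library was above 2 times any Ad-Con library, and the change reached 1.40 on the log2 scale (SE 0.07, limma adjusted p = 5.3e-06), beside 0.49 for Pvr. Tnfrsf14, the HVEM receptor that binds BTLA, went from 1.23 ± 0.211 to 3.27 ± 0.776 FPKM (log2 fold change 1.33, limma adjusted p = 0.00102). H2-T23, the mouse Qa-1 molecule recognised by NKG2A, went from 78.9 ± 4.09 to 188.9 ± 5.14 FPKM (1.26, limma adjusted p = 1.5e-06), and 16.0% of its 50-base windows recurred in other genes. Cd24a, a sialylated surface protein that binds Siglec receptors, was lower, at 75.8 ± 3.42 and 32.5 ± 2.40 FPKM (-1.22, limma adjusted p = 6.3e-06). Lgals3, another galectin of this list, was above Lgals9 in all 6 libraries, and the ratio of Lgals9 to Lgals3 was 0.263 ± 0.0107 under Ad-Con and 0.816 ± 0.0927 under Ad-PDK4.

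Genes known to govern PD-L1 rose more often than they fell. Of 28, all were tested, 7 were called higher and 0 lower, with a median log2 fold change of 0.39. By adjusted p alone 17 were higher and 1, Spop, was lower. The list was not sorted by whether a gene raises or lowers PD-L1, so these counts give no direction for PD-L1. The shares of all tested genes were 3.95% and 2.68%, and 21.8% and 20.8% by adjusted p alone. The list was chosen with earlier results of these data known, so its counts are a description and no independent support. Nlrc5, counted among the 7, was below the filter under Ad-Con (0.258 FPKM) and entered the test only through its Ad-PDK4 level. Irf7, a transcription factor of the interferon response, went from 5.69 ± 0.794 to 184.1 ± 11.7 FPKM (log2 fold change 5.00, limma adjusted p = 8.5e-08). The next in size were Nlrc5, the transactivator of MHC class I genes (3.67, limma adjusted p = 1.4e-06), and Stat2 (2.62, limma adjusted p = 9.6e-08). Irf1, the factor that binds the PD-L1 promoter, was at 9.87, 10.0 and 9.48 FPKM and at 23.8, 26.4 and 25.2 (1.35, limma adjusted p = 1.8e-06). The groups did not overlap for Irf1. Irf9, the DNA-binding partner of STAT2, rose by 1.58 on the log2 scale (limma adjusted p = 6.7e-07), and Ifnar2, a chain of the type I interferon receptor, 1.22 (limma adjusted p = 1.5e-06). Jak2, a kinase of the interferon-γ receptor, rose by less than 2-fold (0.77, limma adjusted p = 2.1e-04). So did Cmtm6, which protects PD-L1 protein from lysosomal decay (14.9 ± 0.427 and 17.8 ± 1.01 FPKM, 0.25, limma adjusted p = 0.01085). Ifngr1 rose by less than 2-fold as well (0.36, limma adjusted p = 0.002186). Jak1, Ifnar1 and Ifngr2 did not pass (0.10, 0.04 and 0.06, limma adjusted p = 0.1292, 0.6427 and 0.5316).

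**Figure D4:**
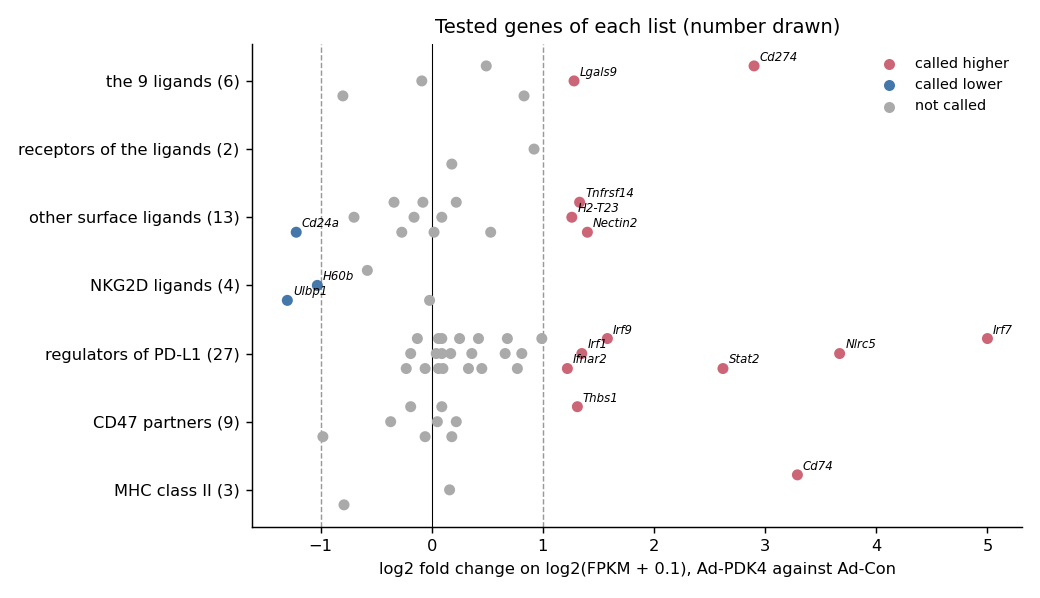
Log2 fold change of tested genes in the ligand group and the 6 related lists, Ad-PDK4 against Ad-Con, each point a gene, with those past the adjusted p and the 2-fold limit in red (higher) or blue (lower) and named. The 27 regulators of PD-L1 drawn had 6 red points and no blue ones, and NKG2D ligands had 2 blue points and no red ones.

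A list of 9 genes for CD47 held partners, enzymes and the transcription factor Nrf1, and all were tested. Of these, 1 was called higher and 0 lower. By adjusted p alone 3 were higher and 3 lower, beside 21.8% and 20.8% of all tested genes. Thbs1, which encodes thrombospondin-1, a secreted ligand of CD47, went from 27.1, 28.2 and 25.9 FPKM to 62.3, 68.7 and 70.5 (log2 fold change 1.31, limma adjusted p = 3.1e-06). The groups did not overlap. Itgb3 and Itgav, the chains of an integrin that associates with CD47, were lower (-0.98 and -0.37, limma adjusted p = 6.8e-04 and 0.0027), and Itgb3 passed the 2-fold limit when either Ad-Con replicate 1 or Ad-PDK4 replicate 2 was left out.

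Of 8 protein-coding genes within 250 kb of Cd274, 6 were tested and 0 were called, against 3.95% of all tested genes called higher. By limma's adjusted p alone Jak2 (0.77), Plgrkt (0.43, adjusted p = 0.002956), Rcl1 (0.24) and Ermp1 (0.16) were higher, 4 of 6 against 21.8% of all tested genes, but Ermp1 did not pass when all genes with a read were admitted (adjusted p = 0.08306). Plgrkt, a plasminogen receptor, runs on the opposite strand, with its start 65 bases from that of Cd274. Of 4 such genes near Lgals9, 3 were tested and 0 were called. The untested gene, Nos2, the inducible nitric oxide synthase, converges on Lgals9 with 2720 bases between their 3′ ends. It had 0 reads in the 3 Ad-Con libraries and 59, 44 and 84 in the Ad-PDK4 libraries (0.722 ± 0.147 FPKM, SD, n = 3). Its mean was thus at least 18.6-fold higher than the level of 3 reads in any Ad-Con library.

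**Figure D5:**
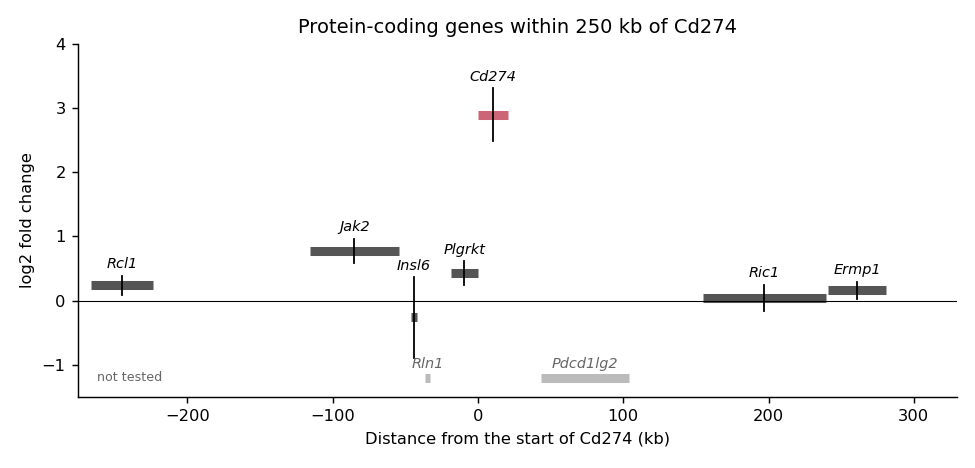
Log2 fold change of protein-coding genes within 250 kb of Cd274, placed by distance in kb from its start, with 95% confidence intervals as vertical lines and untested genes in grey at the bottom. Cd274 (2.90) stands above its 6 tested neighbours, of which Jak2 (0.77) was the highest.

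The genes whose profiles over the 6 libraries were nearest to those of the called ligand genes were found by the root mean square difference of centred log2(FPKM + 0.1). For Cd274 these were Lgi2 (0.10), Hsd11b1 (0.116) and Hp (0.131), with log2 fold changes of 2.92, 2.85 and 2.92. For Lgals9 they were Ifnar2 (0.045), H2-T23 (0.049) and Aldh1a1 (0.058), with 1.22, 1.26 and 1.36. All 6 libraries entered this measure, which is a description without a test.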

How the data were processed

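Bulk RNA was sequenced in 6 libraries, grouped by their treatment label (Ad-Con) or genotype label (Ad-PDK4) and numbered by their titles. The authors deposited FPKM values per gene and library, with gene lengths. The submitters' processing notes name CASAVA 1.8, fastp, HISAT2 2.0.5, featureCounts 1.5.0-p3, DESeq2 1.20.0 and GRCm39. The coordinates, however, match GRCm38, where 98.3% of 54409 identifiers found in GENCODE M21 had the same start and end, and they are given on that build. Labels name a SMARTER kit and methods a NEBNext Ultra kit; the strand setting is not given in the sources used here. FPKM times length gave whole reads for 100% of values (tolerance 0.01 reads). Replicates differed by more than sampling noise (chi-square per degree of freedom 3.99 to 10.9 within groups and 77.1 to 97.7 between), so none was merged.

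log2(FPKM + 0.1) was tested with limma 3.58.1 in R 4.3.3 (trend and robust moderation, two-sided, Benjamini-Hochberg over the 13423 genes that averaged 0.5 FPKM or more), checked on simulated data. Calls needed an adjusted p under 0.05 together with a 2-fold difference. Fold changes on this scale understate changes of low genes. Alternatives were other pseudocounts, filters and scalings, voom, a replicate block and leaving out each library. The members and lists were chosen with earlier results of these data known. Named were all 9 ligands, in each related list the called genes (up to 3 of the largest changes where fewer than 3 were called), Sirpa, Cmtm6, Irf1, Jak2, neighbours within 250 kb and the 3 nearest profiles. Marker genes, Pdk4, Spop, Jak1, Ifnar1, Ifngr1, Ifngr2, Nrf1, Havcr2, Ciita and Lgals3 were named beside these. A called regulator of PD-L1 is counted in its list but not reported here.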

Additional observations from a re-analysis of the deposited data

How the results depend on the processing

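Cd274, Lgals9, Cd47, Cd276 and Pvr kept their direction and their side of an adjusted p of 0.05 under all alternatives run for them. Values ranged from 2.09 (pseudocount 1) to 3.04 (voom) for Cd274, 1.26 to 1.32 for Lgals9, 0.77 to 0.90 for Cd47, -0.87 to -0.75 for Cd276 and 0.43 to 0.53 for Pvr. Leaving out a library gave -0.16 to 0.04 for Cd80, the last without Ad-Con replicate 3 (adjusted p = 0.801). Icosl passed with voom (1.62). At a mean FPKM of at least 5, below which Cd274 and Cd80 fell, 1 ligand gene was called higher, with 258 genes higher and 114 lower in all; pseudocount 1 gave 153 lower. These compare with 530 and 360, of which voom gave 553 and 407. With no limit on the fold, calls were 4 higher and 1 lower among ligand genes, 2928 and 2798 among all genes, 1 higher among receptors, 4 lower among other surface ligands, 17 higher and 1 lower among PD-L1 regulators, and 3 higher and 3 lower among CD47 partners. NKG2D ligands called lower were 1 on the TPM scale and 1 to 2 when a library was left out (1 without Ad-Con replicate 3 or Ad-PDK4 replicate 1), and CD47 partners 0 to 1; leaving out libraries for these lists was chosen after seeing the data. Same-numbered replicates did not deviate together (r = -0.046, -0.031 and -0.001 over genes), and the replicate block gave 2.90 for Cd274 (adjusted p = 5.3e-04), 529 and 354 calls in all, and changed no call of a ligand gene. Depth limited Pdcd1lg2, Cd86 and Icosl, at 0 to 20 reads.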

Other observations

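NKG2D ligands, stress proteins that mark a cell for NK cells, were lower or near their Ad-Con level in the libraries labelled Ad-PDK4. Of 8 genes listed, 5 were analysed here, 4 were tested, and 0 were called higher and 2 lower, with a median log2 fold change of -0.81. Of all tested genes, 3.95% were called higher and 2.68% lower. Ulbp1 was at 5.43, 4.95 and 5.33 FPKM under Ad-Con and 2.32, 1.76 and 2.17 under Ad-PDK4 (log2 fold change -1.30, SE 0.11, limma adjusted p = 8.0e-05). The lowest Ad-Con library was above 2 times the highest Ad-PDK4 library. H60b was at 6.0, 6.15 and 6.87 FPKM and at 2.90, 3.11 and 3.14 (-1.03, SE 0.08, limma adjusted p = 4.8e-05). That value lay close to the 2-fold limit, and H60b fell just short of it on the TPM scale and when Ad-Con replicate 3 or Ad-PDK4 replicate 1 was left out, while its adjusted p still passed. Raet1e fell by less than 2-fold (-0.58, limma adjusted p = 2.0e-04) and Raet1d did not pass (-0.02, 95% confidence interval -0.19 to 0.16, limma adjusted p = 0.8766). These genes share much sequence, with 44.4% of the 50-base windows of Raet1e and 56.4% of those of Raet1d found in another gene, so their separate values are uncertain.

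MHC class II genes, which present antigen to CD4 T cells beside CD80 and CD86, were mostly at the detection limit. Of 8 genes, 3 were tested, 1 was called higher and 0 lower. Cd74, the invariant chain, had 4, 1 and 3 reads under Ad-Con and 42, 44 and 62 under Ad-PDK4 (log2 fold change 3.29, limma adjusted p = 1.2e-04). It was below the filter under Ad-Con (0.0990 FPKM) and entered the test only through its Ad-PDK4 level, so the count of 1 is no support for the list. That level stayed low, at 1.8 ± 0.178 FPKM under Ad-PDK4 (SD, n = 3). H2-DMa, which loads peptides onto class II molecules, was at 0.985 ± 0.135 and 0.563 ± 0.256 FPKM and did not pass (-0.79, limma adjusted p = 0.09845), nor did H2-DMb1 (0.16, limma adjusted p = 0.2104), which shares 27.2% of its 50-base windows with H2-DMb2. Ciita, the class II transactivator, had 12, 5 and 0 reads under Ad-Con and 1, 0 and 2 under Ad-PDK4.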
